A study of Oryza sativa with 12 samples.

Results

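The near end of Chromosome 3 was examined in IL22, a salt-tolerant introgression rice line, and in its salt-sensitive *japonica* parent OLESA. The locus IDs of rice are numbered along each chromosome, and the run from Os03g0100030 to Os03g0125300 is the start of Chromosome 3 in that numbering. This run of IDs was delimited in an earlier look at the same libraries, from IL22 against OLESA under salt, so its members were chosen by measured values. It held 214 of the 36844 counted features, and the 142 with a mean of at least 1 CPM (counts scaled to the library total) in 1 or more of the 4 groups are the members described here. All 142 members were among the 20760 features with enough counts for testing.

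An introgression line is made by crossing a donor to a recurrent parent and then backcrossing to that parent, so that most of the genome returns to the recurrent parent and a few donor segments remain. Segments that nobody selected for can stay behind with the selected ones. *Indica* and *japonica*, the main subspecies of Asian rice, differ in sequence, in gene content and in the regulation of many genes. RNA-Seq reads of a donor segment are counted on the gene models of the reference, and a read that differs too much from the reference is not counted.

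The recurrent parent OLESA carries the code PL12 in the sample labels. IL22 derives from a cross of OLESA with the salt-tolerant *indica* line FL478, followed by marker-assisted backcrossing, and it holds *indica* segments on Chromosome 1 as well as on Chromosome 3. Both genotypes were grown in hydroponics and leaves were collected from control plants and from plants kept for 24 h in 80 mM NaCl. Each of the 4 groups has 3 libraries, and each library pools 4 plants. IL22 is 1 line compared with 1 parent, so effects of its Chromosome 3 segment, of its Chromosome 1 segments and of any other segment cannot be told apart. The study placed the *indica* segment from sequence variants in the transcripts, and reported that the result largely matched its genotyping of IL22 by DNA markers and sequencing. It counted more genes in the Chromosome 3 segment than the run has IDs, so the run may cover only a part of that segment. Counts carry no alleles, and the origin of these genes was not checked here. The count table does not pair locus IDs with gene names, and neither the text of the paper at hand nor the reference pairs any member ID with a name, so genes are given by ID with no role, and leaf marker genes were not checked.

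The 12 libraries held between 11505396 and 23578477 counts. The members together took from 4431 to 5558 CPM per library, after TMM normalization, which is the scale of all CPM values given here. IL22 control replicate 1 stood apart from its group. Across the members its log2 CPM correlated at r = 0.936 with each of the other IL22 control libraries, which correlated with each other at r = 0.98, and in the other groups r ranged from 0.947 to 0.989. These correlations are across genes, which are not independent replicates. In bulk leaf tissue, fewer cells of a type and less RNA per cell cannot be told apart.

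Mean levels of the members over the 12 libraries ran from 0.487 to 552 CPM, with a median of 16.0 CPM beside 11.9 CPM over all tested features. CPM values are not divided by gene length, so an order of genes by these levels ranks counts and not transcript amounts. Os03g0117100 had the highest mean of the members. Its libraries held 635, 641 and 639 CPM in OLESA control, 422, 646 and 676 CPM in IL22 control, 512, 638 and 460 CPM in OLESA under salt, and 441, 416 and 494 CPM in IL22 under salt. The groups overlapped, with the lowest values in salt-treated IL22 and in IL22 control replicate 1. At the other end, 21 members were below 1 CPM in some group. The first of the members, Os03g0100030, was highest in OLESA control, at 325, 335 and 334 CPM, and had 269, 275 and 312 CPM in IL22 control. Locus IDs that end in 00 gave 135 of the 142 members, out of 180 such IDs in the run (75%). Of the 34 other IDs, 7 were members (20.6%), with a median level of 2.58 CPM beside 16.2 CPM.

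Both limits of the rule are given here as a description. Os03g0114100, Os03g0102333 and Os03g0100200 were just inside the CPM minimum, with 1.04, 1.06 and 1.12 CPM in their highest group before TMM normalization, and Os03g0108500, Os03g0117300 and Os03g0111300 were just outside it, with 0.968, 0.887 and 0.837 CPM. Of the 72 IDs that were not members, 18 had no count in any library and 8 had enough counts to be tested. The last member, Os03g0125300, had a log2 FC of 0.05 for IL22 against OLESA in control and 0.15 under salt. The tested IDs just beyond it, Os03g0125400 and Os03g0125600, had a log2 FC of 0.25 and -0.44 in control, and of -0.29 and -0.38 under salt. So few genes cannot show whether the differences change at the ID where the rule ends.

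The control plants of the 2 genotypes allow a comparison in libraries that did not serve to delimit the run, although they did enter the CPM minimum for its members. A gene was called when the adjusted p of edgeR's quasi-likelihood test was 0.05 or less and the log2 FC was beyond 0.5 in either direction. Between IL22 and OLESA in control, 19 of the 142 members were called (13.4%), against 1.38% of all tested features. Of these, 5 were higher in IL22 (background 0.621%) and 14 were lower (background 0.756%). A gene could pass the minimum through the genotype in which it is high: 18 members were below 1 CPM in both groups of 1 genotype, and these gave 9 of the 19 calls, so the share over the members favours differences. Among all 150 tested IDs of the run, where the count filter was the one applied to the whole table, 20 were called (13.3%). The log2 FC had a median size of 0.434 over the members and of 0.318 over all tested features. A log2 FC beyond 2 in either direction was found in 10.6% of the members and in 1.69% of all tested features. A log2 FC within 0.5 in control was found in 78 of the 142 members, and 63 stayed within 0.5 in both conditions. These shares were not taken over all tested features, so they do not show the members to be close. Another 45 members were past the fold in control but not called, at a median SE of 0.265 over the members. When the 6 control libraries were fitted by themselves, so that they share no dispersion estimate with the salt libraries, 14 members were called (background 0.794%), and all of these were among the 19. Without IL22 control replicate 1 the count was 53, with a background of 18.9%.

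**Figure D1:**
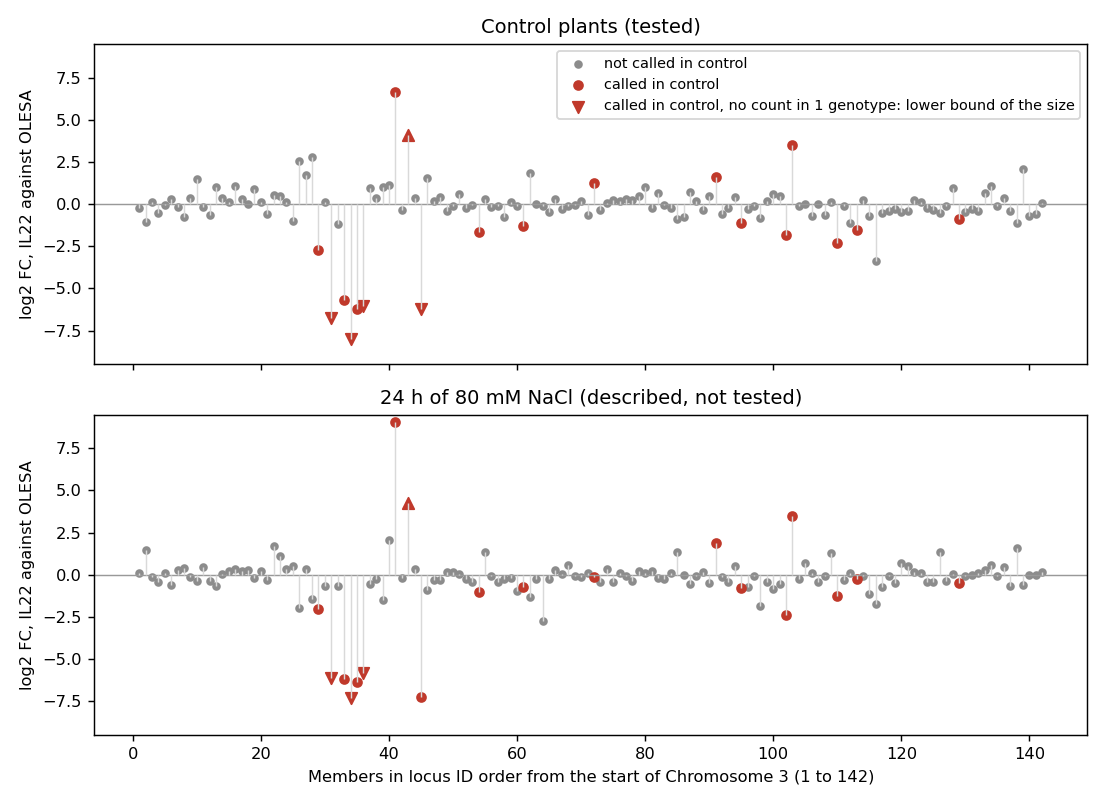
Log2 FC of IL22 against OLESA (y axis) for the 142 members in locus ID order (x axis), in control plants above and under salt below, with the 19 members called in control in red and triangles at lower bounds from 3 counts for genes without a count in a genotype (for Os03g0106400 and Os03g0107600 under salt, the ratio of counts summed over the libraries of a genotype, per library size). The large differences crowd together near ranks 29 to 45, where 9 members were called, and the same members stand out in both panels.

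The called members were unevenly placed. The 17 members from Os03g0103800 to Os03g0107600 held 9 of the 19 calls, all with a log2 FC beyond 2, and 7 of the 9 were lower in IL22. The other 10 calls came from the 97 members that follow, of which 2 had a log2 FC beyond 2. The median size of the log2 FC in control was 2.7 in the stretch of 17 and 0.398 in the members after it. The ends of this stretch were set after the values were seen, so these figures describe it and are no test. For the same reason the genes of the stretch named next, beyond those that the rule for named genes gives, were chosen after their values were seen.

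Os03g0104800 was detected only in OLESA. Its libraries held 19.8, 17.8 and 10.6 CPM in OLESA control and 12.6, 8.43 and 8.47 CPM in OLESA under salt, and no count in any of the 6 libraries of IL22. The level in OLESA control was at least 259-fold higher than in IL22 control, with 3 counts over the group as the floor (adjusted p = 2.82e-05, edgeR), and under salt it was at least 161-fold higher. Os03g0104000 and Os03g0105401 had no count in IL22 either. Os03g0104000 held 4.43, 8.70 and 6.78 CPM in OLESA control and 5.07, 4.47 and 3.48 CPM in OLESA under salt, at least 107-fold above IL22 in control and at least 71.2-fold under salt (adjusted p in control = 0.000141, edgeR). Os03g0105401 held 4.22, 4.49 and 3.52 CPM in OLESA control and 2.56, 4.05 and 3.79 CPM in OLESA under salt, at least 65.7-fold above IL22 in control and at least 56.9-fold under salt (adjusted p in control = 0.000227, edgeR). Loss of the gene, lower expression and fragments that could not be aligned to the *japonica* reference cannot be told apart in these counts.

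Os03g0107600 showed nearly the same pattern, with 4.50, 6.06 and 3.62 CPM in OLESA control and no count in IL22 control, a difference of at least 76.1-fold (adjusted p = 0.000101, edgeR). Under salt OLESA had 7.63, 6.32 and 4.81 CPM and the IL22 libraries together held 2 counts, which gives a ratio of 151 with a 95% counting interval from 41.3 to 1250.

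Os03g0105300 and Os03g0104400 were also much lower in IL22 but did not reach 0. Os03g0105300 held 25.8, 29.0 and 28.6 CPM in OLESA control and 0.195, 0.562 and 0.391 CPM in IL22 control (log2 FC = -6.24, SE 0.315, adjusted p = 1.96e-07, edgeR). Under salt it held 27.8, 26.0 and 26.5 CPM in OLESA and 0.469, 0.193 and 0.241 CPM in IL22. Its level in OLESA thus differed little between control and salt. Os03g0104400 held 35.7, 31.5 and 35.5 CPM in OLESA control and 0.683, 0.481 and 0.782 CPM in IL22 control (log2 FC = -5.68, SE 0.258, adjusted p = 7.13e-08, edgeR). Under salt it held 43.2, 40.95 and 43.4 CPM in OLESA and 0.797, 0.322 and 0.563 CPM in IL22. The genotypes were far apart in every library.

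Os03g0103800, the first called member of the stretch, was lower in IL22 by a smaller factor and at a higher level. It held 135, 138 and 106 CPM in OLESA control and 20.1, 19.3 and 19.1 CPM in IL22 control (log2 FC = -2.70, SE 0.157, adjusted p = 5.05e-07, edgeR). Under salt the values were 91.5, 83.7 and 94.1 CPM in OLESA and 24.8, 22.6 and 19.4 CPM in IL22, again without overlap.

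The 5 members called as higher in IL22 were Os03g0106400, Os03g0107100, Os03g0111600, Os03g0115100 and Os03g0117000, and the first and second of them lie in the stretch of 17. Os03g0106400 held 0.136, 0.0713 and 0.0502 CPM in OLESA control and 9.17, 8.10 and 9.71 CPM in IL22 control (log2 FC = 6.64, SE 0.438, adjusted p = 1.39e-06, edgeR). Under salt OLESA had 1 count in all, and IL22 held 10.5, 8.38 and 11.6 CPM, a ratio of 524 with a 95% counting interval from 93.7 to 20700. Os03g0107100 had no count in any of the 6 OLESA libraries, 1.12, 0.722 and 1.30 CPM in IL22 control and 1.17, 1.29 and 0.885 CPM in IL22 under salt. The level in IL22 was at least 17-fold higher in control (adjusted p = 0.00837, edgeR) and at least 19.3-fold higher under salt. These genes were thus near or below detection in the *japonica* parent and present in all IL22 libraries.

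Os03g0115100 was expressed in both genotypes at a stable ratio. Its libraries held 22.4, 24.1 and 22.9 CPM in OLESA control and 77.1, 72.6 and 63.7 CPM in IL22 control (log2 FC = 1.62, SE 0.155, adjusted p = 4.57e-05, edgeR). Under salt it held 28.0, 24.3 and 22.2 CPM in OLESA and 91.1, 76.7 and 101 CPM in IL22, with every IL22 library above every OLESA library in both conditions. Os03g0117000 was low in all libraries, with 0.273, 0.499 and 0.301 CPM in OLESA control and 2.88, 4.57 and 5.08 CPM in IL22 control (log2 FC = 3.53, SE 0.706, adjusted p = 0.0241, edgeR). Its call was lost in 5 of the 12 fits that left out 1 library each, in which a library of OLESA control or replicate 2 or 3 of IL22 control was missing, where the adjusted p reached 0.125, while the log2 FC stayed between 3.36 and 3.82 in all 12.

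Os03g0111600 was the 1 gene of these 5 that was past the fold in control and not under salt. It held 16.3, 16.3 and 11.9 CPM in OLESA control, 26.9, 41.7 and 36.5 CPM in IL22 control, 35.8, 44.2 and 35.1 CPM in OLESA under salt and 34.2, 32.6 and 35.7 CPM in IL22 under salt. OLESA control is the group that stands low, and the other groups overlap. The log2 FC between genotypes was 1.24 in control (SE 0.194, adjusted p = 0.00415, edgeR) and -0.16 under salt. With the 6 control libraries fitted by themselves the adjusted p was 0.0685.

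**Figure D2:**
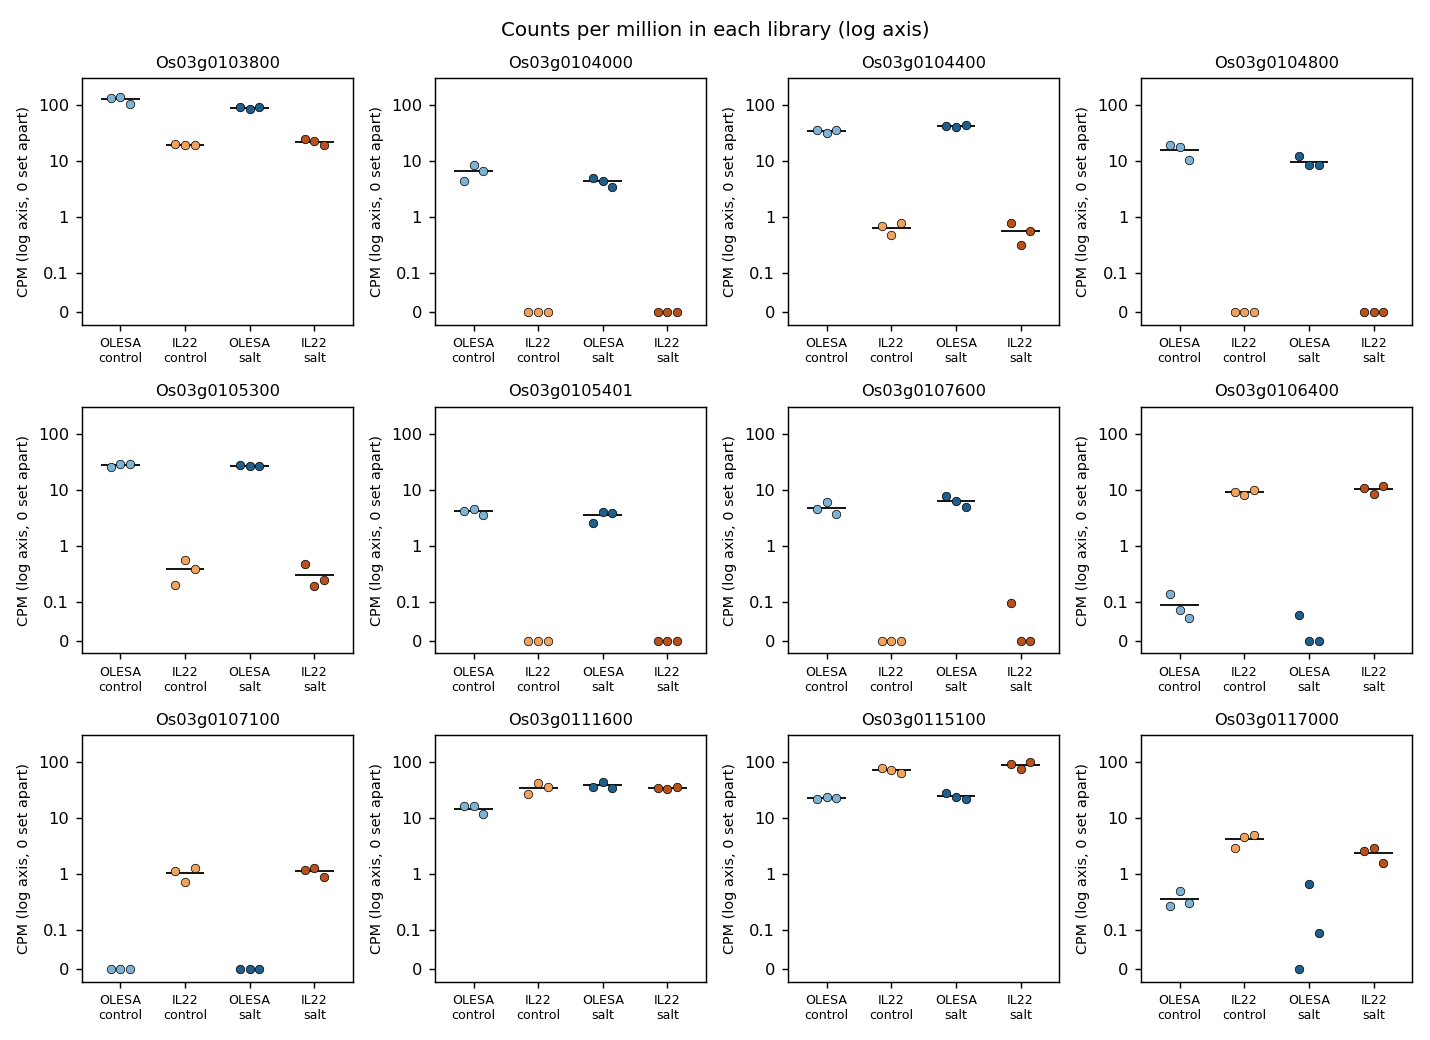
CPM (y axis, log scale with 0 set apart) in each of the 3 libraries of the 4 groups (x axis) for 12 members called between the genotypes in control, with lines at the group means where no library is at 0. Apart from Os03g0111600, the IL22 libraries and the OLESA libraries of each gene are apart in both conditions, and OLESA under salt spreads widely for the low gene Os03g0117000.

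The remaining called members were lower in IL22 by smaller factors. In order of ID they were Os03g0108800, Os03g0109900, Os03g0115500, Os03g0116900, Os03g0118800, Os03g0119300 and Os03g0122600, with a log2 FC from -2.31 in Os03g0118800 to -0.91 in Os03g0122600. Os03g0116900 held 11.2, 12.3 and 11.4 CPM in OLESA control, 3.41, 3.77 and 2.54 CPM in IL22 control, 15.7, 15.8 and 14.2 CPM in OLESA under salt and 3.05, 3.74 and 1.77 CPM in IL22 under salt, with no overlap between genotypes. Os03g0119300 was low in every group other than OLESA control. It held 112, 71.04 and 119 CPM there, 44.2, 32.0 and 28.6 CPM in IL22 control, 41.9, 35.8 and 37.5 CPM in OLESA under salt and 19.0, 31.4 and 47.1 CPM in IL22 under salt. Of all 19 called members, 12 kept their call whichever library was left out. They were the 9 of the stretch together with Os03g0111600, Os03g0115100 and Os03g0116900.

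Called members were found at all levels. Of the 71 members in the lower range of mean CPM, up to 15.9 CPM, 12 were called in control, and of the 71 above it 7 were called. The median size of the log2 FC in control was 0.583 in the lower range and 0.325 in the upper range. All tested features were not split in this way, so these values describe the members alone.

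Windows of 50 tested features in ID order show how the differences in control ran along the chromosome. The first 3 windows cover the 142 members and the 8 tested IDs below the CPM minimum. They held 9, 6 and 5 called features, or 18%, 12% and 10% of each window, and 1 of these calls was of an ID below the minimum. The 3 windows that follow, from Os03g0125400 to Os03g0152600, held 4, 2 and 1 (8%, 4% and 2%). The share of called features was thus highest in the first window and decreased beyond the last member without a sharp edge. In all of Chromosome 3 outside the run of the members, with the last 3 windows included, 19 of 2608 tested features were called (0.729%). On Chromosome 1, where the other *indica* segments of IL22 lie, the run of 400 tested features from Os01g0108200 to Os01g0189100 had 17.5% called and the run of 450 from Os01g0265800 to Os01g0542100 had 17.1%. These runs were also delimited on measured values of these libraries, so the shares are given side by side without a test.

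**Figure D3:**
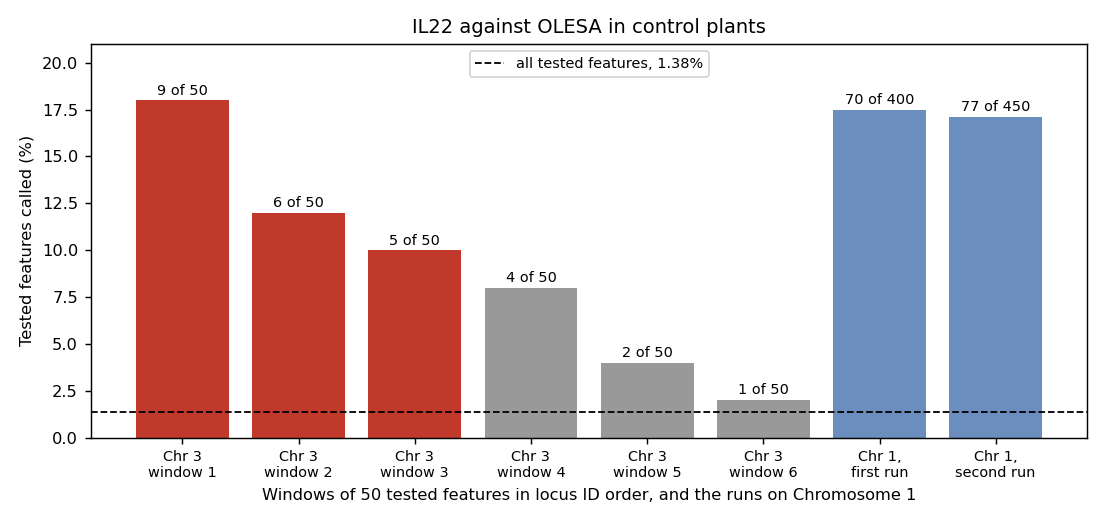
Share of tested features called between IL22 and OLESA in control (y axis, percent) in 6 windows of 50 features from the start of Chromosome 3 (red, the run of the members; grey, beyond it) and in the runs on Chromosome 1 (blue), with the share over all tested features as a dashed line at 1.38%. The windows fall from 18% to 2%, and the Chromosome 1 runs are at 17.5% and 17.1%.

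Under salt the genotypes were compared in the libraries that served to delimit the run, so this comparison is a description with no test. A log2 FC beyond 0.5 between IL22 and OLESA was found in 54 members (38%), with 32.5% of all tested features past the same fold. Of the members, 20 were higher in IL22 (background 15.6%) and 34 were lower (background 16.9%). Its median size was 0.376 over the members and 0.32 over all tested features. Of the 19 members called in control, 18 had the same sign under salt and 16 of these were past the fold. The replicates of the genotypes did not overlap under salt in 17 of the 19. The share without overlap over all tested features was not taken, so this count supports no call. The change of sign was in Os03g0111600.

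The response to salt was examined within each genotype, since the introgressed segment is in IL22 alone. These contrasts use the salt libraries from which the run was delimited, though not the contrast between genotypes. In OLESA, 29 members were called between salt and control (20.4%), near the 21.6% of all tested features. Of these, 13 were up-regulated (background 11.7%) and 16 were down-regulated (background 9.89%). The log2 FC of the called members ran from -1.39 to 3.16, with a median size of 0.874. Over all members the median size was 0.479, beside 0.465 over all tested features. Of these calls, 22 were in the 71 members above 15.9 CPM and 7 in the 71 below. All tested features were not split by level, so this is no trait of the members. Leaving out OLESA control replicate 2 or 3 gave 12 and 15 calls (background 9.05% and 10.9%), leaving out OLESA salt replicate 1 or 2 gave 17 and 16 (14.1% and 12.7%), and leaving out IL22 salt replicate 1 or 2 gave 19 each (17.5% and 18%). The share over all tested features thus moved with the count of members. Of the 29 members, 12 were called whichever library was left out.

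Os03g0103400 had the largest increase in OLESA among the called members. It held 3.20, 1.36 and 2.41 CPM in OLESA control and 29.9, 22.3 and 10.5 CPM under salt (log2 FC = 3.16, SE 0.685, adjusted p = 0.00831, edgeR). In IL22 it held 2.24, 20.8 and 25.9 CPM in control and 7.97, 8.51 and 6.60 CPM under salt, so that IL22 control replicate 1 was at the level of OLESA control and the other replicates were above. Os03g0106000 was next, with 14.7, 11.9 and 13.8 CPM in OLESA control and 54, 72.6 and 48.1 CPM under salt (log2 FC = 2.11, SE 0.368, adjusted p = 0.00319, edgeR). In IL22 it held 10.4, 30.3 and 40.9 CPM in control and 19.3, 24.1 and 18.8 CPM under salt, where the groups overlapped.

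Among the called members, the strongest decreases in OLESA were in Os03g0119300, given above, and in Os03g0118600. For Os03g0119300 the log2 FC was -1.39 (SE 0.294, adjusted p = 0.00733, edgeR), with all salt libraries of OLESA below its control libraries. Os03g0118600 held 60.4, 62.3 and 69.2 CPM in OLESA control and 26.0, 34.4 and 23.1 CPM under salt (log2 FC = -1.20, SE 0.189, adjusted p = 0.00177, edgeR). In IL22 it held 53.8, 74.0 and 84.7 CPM in control and 67.2, 68.7 and 67.8 CPM under salt, with a log2 FC of -0.06 that did not pass the test. Salt-treated OLESA was the low group.

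In IL22, 6 members were called between salt and control (4.23%), near the 5.17% of all tested features. There were 3 up-regulated members (background 2.92%), Os03g0106200, Os03g0120400 and Os03g0122000, and 3 down-regulated members (background 2.25%), Os03g0105600, Os03g0109800 and Os03g0110300. The log2 FC had a median size of 0.245 over all members and of 0.315 over all tested features. IL22 control replicate 1 bears on this contrast. The count was 23 without it, with 14.7% of all tested features called, and 12 without OLESA salt replicate 3 (background 6.56%). It was 3 without IL22 control replicate 2 (1.9%) or any 1 of the IL22 salt libraries (1.64% to 2.83%), and 4 without IL22 control replicate 3 (2.64%). Os03g0109800, Os03g0120400 and Os03g0122000 were called whichever library was left out.

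Os03g0120400 was up-regulated in both genotypes. It held 2.04, 2.28 and 1.96 CPM in OLESA control and 3.93, 4.80 and 5.84 CPM under salt (log2 FC = 1.22, SE 0.282, adjusted p = 0.0116, edgeR). In IL22 it held 1.95, 1.69 and 1.04 CPM in control and 7.46, 7.29 and 6.44 CPM under salt (log2 FC = 2.17, SE 0.290, adjusted p = 0.00187, edgeR). The salt libraries of IL22 were the highest of the 12, and the log2 FC of IL22 exceeded that of OLESA by 0.95 (SE 0.399). Os03g0109800 was down-regulated in both genotypes, from 28.7, 33.2 and 37.1 CPM to 25.2, 19.1 and 17.6 CPM in OLESA (log2 FC = -0.68, SE 0.215, adjusted p = 0.0394, edgeR). In IL22 it went from 33.9, 23.3 and 34.1 CPM to 9.99, 13.0 and 8.53 CPM (log2 FC = -1.53, SE 0.221, adjusted p = 0.00262, edgeR). Salt-treated IL22 was the low group, with a difference between the responses of -0.85 (SE 0.305). Neither in Os03g0120400 nor in Os03g0109800 was the difference between the responses past the thresholds of a call.

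The calls of the other members in IL22 were lost in several of the fits that left out 1 library. Os03g0106200 held 15.1, 18.0 and 8.29 CPM in OLESA control, 22.3, 38.5 and 30.7 CPM in IL22 control, 19.7, 19.5 and 11.5 CPM in OLESA under salt and 72.9, 63.1 and 71.4 CPM in IL22 under salt. All salt libraries of IL22 were above all other libraries (log2 FC in IL22 = 1.18, SE 0.286, adjusted p = 0.0312, edgeR). Os03g0105600 held 11.5, 24.0 and 25.2 CPM in IL22 control and 7.74, 8.19 and 7.32 CPM under salt (log2 FC = -1.38, SE 0.310, adjusted p = 0.0225, edgeR). The calls of Os03g0106200 and Os03g0105600 were lost when IL22 control replicate 2 or 3 or any 1 of the IL22 salt libraries was left out, with an adjusted p of up to 0.116 and 0.0927. Their log2 FC over all 12 such fits stayed between 1.00 and 1.38 and between -1.66 and -1.19, respectively. Os03g0110300 held 20.5, 98.5 and 132 CPM in IL22 control and 25.7, 23.5 and 22.1 CPM under salt (log2 FC = -1.81, SE 0.488, adjusted p = 0.0494, edgeR). IL22 control replicate 1 was below the salt libraries of IL22 and the other control replicates were far above them, and the call was lost in 10 of the 12 fits that left out 1 library, all but those without IL22 control replicate 1 or OLESA salt replicate 3, with a log2 FC between -2.28 and -1.32 and an adjusted p of up to 0.19.

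Across the genotypes, 32 members were called for salt in at least 1, and 3 were called in both, that is 10.3% of the 29 in OLESA and 50% of the 6 in IL22. Over all tested features, 585 were called in both, 13% of those called in OLESA and 54.5% of those called in IL22. Os03g0109800 and Os03g0120400 changed in the same direction, and Os03g0122000 changed in opposite directions.

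**Figure D4:**
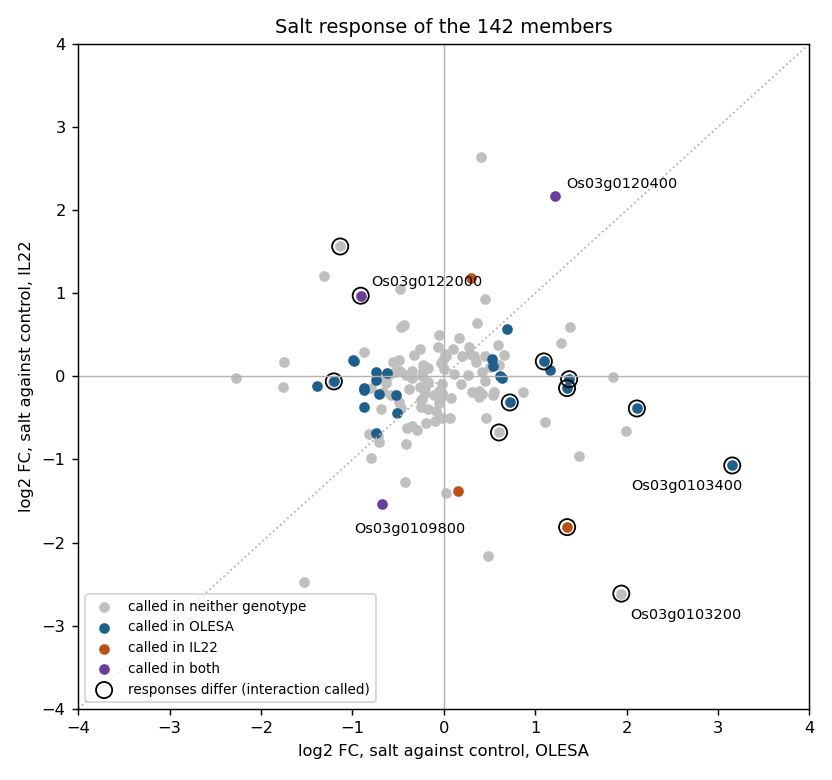
Log2 FC of salt against control in IL22 (y axis) against the same in OLESA (x axis) for the 142 members, colored by the genotype in which the member was called, with rings around the 12 members past the thresholds for a difference between the responses and a dotted line where the responses are equal. Os03g0120400 and Os03g0109800 lie in the quadrants of equal sign, and Os03g0122000 lies at -0.91 in OLESA and 0.97 in IL22.

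Whether salt changed a gene differently in IL22 and in OLESA was examined as an interaction. This difference equals that between the genotypes under salt minus that in control, so it contains the contrast from which the run was delimited, and for the members it is a description with no test. The interaction was past the thresholds of a call in 12 members (8.45%), with 4.99% of all tested features past them. In 3 of them the log2 FC of salt was higher in IL22 than in OLESA (background 1.43%), and in 9 it was lower (background 3.56%). The median size of the difference was 0.495 over the members and 0.519 over all tested features. In 9 of these 12 members, IL22 control replicate 1 was nearer to the mean of OLESA control than the other IL22 control libraries were, as it was in 82 of all 142. Without this library 36 members were past the thresholds, with a background of 23.3%. With 1 of 9 other libraries left out (OLESA control replicates 2 and 3, IL22 control replicates 2 and 3, OLESA salt replicates 1 and 2 and all IL22 salt replicates) 1 member remained past them, with a background between 0.0891% and 0.267%, so the loss was over all features and not in the members alone.

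That member was Os03g0122000, the sole 1 of the 12 past the thresholds whichever library was left out. Its libraries held 38.4, 40.2 and 28.7 CPM in OLESA control and 17.6, 18.1 and 21.3 CPM in OLESA under salt (log2 FC = -0.91, SE 0.169, adjusted p = 0.00428, edgeR). In IL22 they held 25.2, 21.5 and 28.4 CPM in control and 51.1, 48.6 and 47.7 CPM under salt (log2 FC = 0.97, SE 0.168, adjusted p = 0.00641, edgeR). Salt and control did not overlap in either genotype, and the directions were opposite. The responses differed by 1.88 on the log2 scale (SE 0.238), and with 1 library left out this value ran from 1.79 to 2.03.

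The other members that the rule for named genes gives did not stay past the thresholds in most of these fits, although the size of their difference stayed large. For Os03g0118600, with the values above, salt lowered the level in OLESA and the responses differed by 1.14 (SE 0.263). The largest negative differences were in Os03g0103200 and Os03g0103400, both just before the stretch of 17. Os03g0103200 held 63.5, 16.4 and 50.8 CPM in OLESA control, 55.1, 276 and 441 CPM in IL22 control, 366, 116 and 21.2 CPM in OLESA under salt and 36.2, 44.0 and 45.9 CPM in IL22 under salt. Replicates of 1 group differed by several fold, and the responses differed by -4.56 (SE 1.20). For Os03g0103400 the difference was -4.23 (SE 0.923). With 1 library left out, Os03g0103200 was no longer past the thresholds in 10 of 12 fits, with a difference between -5.08 and -3.27. Os03g0103400 and Os03g0118600 were no longer past them in 9 of 12 fits each, with differences between -4.75 and -3.71 and between 0.985 and 1.31.

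**Figure D5:**
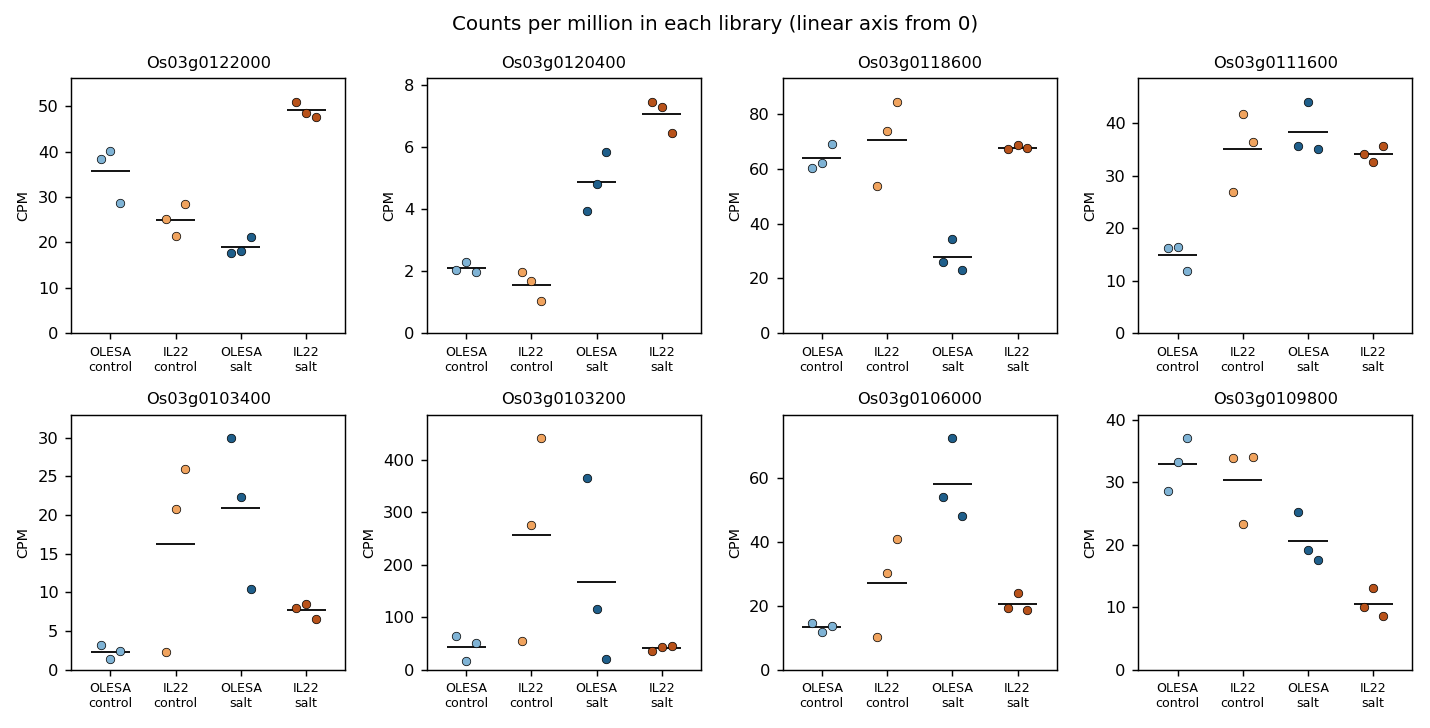
CPM (y axis, linear from 0) in each of the 3 libraries of the 4 groups (x axis) for 8 members named for their salt response or its difference between genotypes, with lines at the group means. Os03g0122000 moves down with salt in OLESA and up in IL22, and in Os03g0103400, Os03g0103200 and Os03g0106000 IL22 control replicate 1 (the leftmost point of its group) is far below replicates 2 and 3.

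Over the control contrast, the salt response of each genotype and the interaction, 90 of the 142 members were past the thresholds in none (63.4%). The share of all tested features past them in none was 74.6%. The interaction is a description for the members, so this count is no test result.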

How the data were processed

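Leaf RNA of IL22 and OLESA was sequenced in 12 libraries, 3 per group, each from a separate set of 4 plants. The authors deposited raw counts per feature, with replicates kept apart. According to the supplementary methods and the submitters' processing notes, the reads of strand-specific libraries passed through bcl2fastq 2.20, cutadapt 1.11 and BBDuk, were mapped by STAR 2.5.2b and were then assigned to genes by featureCounts 1.5.1. The notes name the build IRGSP-1.0. The supplementary methods give a *japonica* (IRGSP-1.0) and an *indica* reference, and the deposited IDs are those of *japonica*. The treatment of multi-mapping fragments is not stated in those sources, so near-identical copies are uncertain. No row lacked a feature name, and no batch is named.

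All fits were made with edgeR 4.0.16 under R 4.3.3. filterByExpr (minimum count 10, minimum total 15) kept 20760 features, and TMM factors, dispersions and the quasi-likelihood test used all 12 libraries with 1 mean per group. P-values are two-sided, with Benjamini-Hochberg adjustment over all tested features. SEs were derived from the F statistic. For genes at 0 in a group, bounds rest on 3 counts summed over its libraries, and intervals and bounds cover counting error only.

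The members, windows and lists were chosen with earlier results of these data known. The rule for named genes took, per contrast other than the genotypes under salt, the 2 called members with the highest and the 2 with the lowest log2 FC, all at 2 or above in mean log2 CPM and, except for the interaction, with separate replicates, together with the first and last member, those at the CPM minimum and the most abundant member. Alternatives were RLE factors, no filter, DESeq2 1.42.0, a replicate block, unadjusted p, fits of the 6 libraries compared, and leaving out each library. The interaction was planned as a test and is given for the members as a description, since it contains the contrast that delimited them. The steps were tested on simulated data. Sequences and gene names were not used here.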

Additional observations from a re-analysis of the deposited data

Results flagged for a closer look

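In 7 of the members named in the text the response to salt differed between the genotypes past the thresholds used for a call. The difference contains the contrast that delimited the run, so it is a description. Given as the log2 FC of salt in IL22 minus that in OLESA, the difference was -4.56 in Os03g0103200, -4.23 in Os03g0103400, -3.16 in Os03g0110300, -2.5 in Os03g0106000, -1.41 in Os03g0111600, 1.14 in Os03g0118600 and 1.88 in Os03g0122000. In Os03g0106000 and Os03g0110300, IL22 control replicate 1 held 10.4 and 20.5 CPM, while replicates 2 and 3 held 30.3 and 40.9 CPM, and 98.5 and 132 CPM, respectively. In Os03g0111600 the level rose with salt in OLESA, with a log2 FC of 1.37 (adjusted p = 0.00113, edgeR), and had a log2 FC of -0.03 in IL22. The part of IL22 control replicate 1 in these values was not tested beyond leaving it out. With 3 libraries per group, no test for single outlying libraries was made.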

How the results depend on the processing

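RLE factors and the fit without a filter on low counts left the counts of called members within 1.5 times of those reported in each comparison (interaction 9 with RLE factors). With DESeq2, 32 members were called between the genotypes in control, 48 for salt in OLESA, 12 for salt in IL22 and 24 for the interaction (5.48%, 26.8%, 9.73% and 11.9% of all tested features). Unadjusted p gave 50, 54, 21 and 36, respectively, with no share over all tested features taken under that rule. Leaving out 1 library gave 14 to 53 in control (0.741% to 18.9% of all tested features) and 12 to 42 for salt in OLESA (9.05% to 27.5%). It gave 3 to 23 for salt in IL22 (1.64% to 14.7%) and 1 to 36 for the interaction (0.0891% to 23.3%). Members past the fold under salt numbered 53 to 65 over these and the other settings. Replicate numbers are shared between groups, and of 18 same-numbered pairs 4 deviated together at r over 0.1 (range -0.326 to 0.2). Pairs with unlike numbers were not compared, so these values cannot decide whether the numbers pair the samples. With the replicate block 17 members were called in control, 17 for salt in OLESA, 4 for salt in IL22 and 1 for the interaction, Os03g0122000 (0.939%, 16.6%, 3.27% and 0.111% of all tested features). Os03g0107100 had an adjusted p of 0.0517 with the block, and DESeq2 gave it none. None of the recomputed log2 FCs of named members changed sign under these settings. In the control contrast, with a median SE of 0.265, differences of less than about 1 on the log2 scale were seldom called: 1 of the 19 called was smaller. This did not hold for salt in OLESA, also with 3 libraries per group, where the called members had a median size of 0.874. Effects of the Chromosome 3 segment and of the other segments of IL22 cannot be told apart, and gene names, sequences and alleles were not analysed here.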
